A study of Mus musculus with 12 samples.

Results

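The surfactant protein and lamellar body genes were followed in mouse lung. They are 9 genes of the alveolar type 2 cell, taken by symbol from the 35599 genes of the expression table: Sftpa1, Sftpb, Sftpc, Sftpd, Abca3, Lamp3, Napsa, Lpcat1 and Slc34a2. The table held polyadenylated RNA of 12 lung tissue libraries, 4 from each of 3 groups. Saline-treated lungs served as controls. AE-PF stands for acute exacerbation of pulmonary fibrosis, and these lungs had received bleomycin, a drug that causes fibrosis, together with lipopolysaccharide (LPS), the endotoxin of Gram-negative bacteria. The ND-RHL group had received the same challenge and then liposomes carrying nintedanib, a kinase inhibitor, and dexamethasone, a glucocorticoid, with hyaluronic acid and RGD peptides on their surface. The strain, age and sex of the mice, the doses, the times and any empty-liposome or single-drug group are not stated in the labels. The labels also do not say that the 4 libraries of a group came from separate animals, and the p-values measure only the spread between these libraries.

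Pulmonary surfactant is a film of phospholipid and protein that lowers surface tension at the air-liquid interface and keeps alveoli open. Type 2 cells make its phospholipids, load them into lamellar bodies, which are lysosome-related storage organelles, and secrete the content into the airspace. SP-B and SP-C are small hydrophobic proteins that are cut from larger precursors on the way to the lamellar body and spread the lipid film, whereas SP-A and SP-D are collectins, soluble lectins that bind microbes.

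Expression is given as FPKM, fragments scaled to gene length and to the fragments counted in the library, so that levels of different genes can be set side by side. All 9 genes passed the filter on low values. The lowest value of any of them was the 11.4 FPKM of Abca3 in AE-PF library 2, which rested on 1924 fragments, and the fewest fragments behind any value were the 758 of Lamp3 in the same library. The libraries held 16152379 to 21667129 fragments, so counting error was small beside the spread between libraries. Lung epithelial transcripts were present in every library, with at least 969 FPKM of Sftpc. AE-PF library 2 and ND-RHL library 4 stood apart from the other 10 by transcripts of stratified squamous epithelium and skeletal muscle, which made up 0.810% and 2.37% of their FPKM totals and at most 0.0388% elsewhere.

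In the GENCODE M21 annotation of GRCm38 the genes lie on 7 chromosomes. Sftpa1, Sftpd and Sftpc share chromosome 14. Sftpa1 (chr14:41131782-41136452, plus strand) and Sftpd (chr14:41172214-41185149, minus strand) are 35761 bases apart, and Sftpc (chr14:70520949-70524081, minus strand) is far from both. Sftpb is at chr6:72304610-72314371 (plus strand), Napsa at chr7:44572380-44586862 (plus), Lpcat1 at chr13:73467197-73516422 (plus), Lamp3 at chr16:19653378-19706375 (minus), Abca3 at chr17:24351950-24410201 (plus) and Slc34a2 at chr5:53038081-53071664 (plus). Genes annotated on the opposite strand overlap Abca3, Napsa and Slc34a2. Among them D330041H03Rik in Abca3 reached at most 2.00 FPKM, Gm15396 in Napsa at most 0.101 and Gm17182 in Slc34a2 at most 1.99, and whether counting used the strand is not known.

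Promoter sequence from RefSeq (build GRCm38.p6, the 250 bases before the annotated start) was found for 6 of the 9 genes: Sftpa1, Sftpb, Abca3, Lamp3, Lpcat1 and Slc34a2. The 4 promoters that held a searched motif are shown, 5′ to 3′ in the direction of the gene, with the motif in capitals. A link between the motifs and the levels of the genes was not tested. The motifs, searched on both strands, were CTCAAG (the core bound by NKX2-1, the lung lineage factor), TGTTTAC (bound by forkhead factors such as FOXA1 and FOXA2), TTGCGCAA and a longer palindrome that contains it (bound by C/EBP factors) and TATAAA (the TATA box).
Sftpb: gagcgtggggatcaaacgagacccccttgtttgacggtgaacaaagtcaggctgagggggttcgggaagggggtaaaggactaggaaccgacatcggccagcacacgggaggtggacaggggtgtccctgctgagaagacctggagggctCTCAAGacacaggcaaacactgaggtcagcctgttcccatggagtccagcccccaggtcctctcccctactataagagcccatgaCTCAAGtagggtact
Sftpa1: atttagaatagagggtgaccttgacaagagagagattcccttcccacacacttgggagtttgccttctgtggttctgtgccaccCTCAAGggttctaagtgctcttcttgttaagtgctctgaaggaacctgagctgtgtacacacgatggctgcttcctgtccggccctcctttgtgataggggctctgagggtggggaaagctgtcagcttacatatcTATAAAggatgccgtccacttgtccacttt
Lamp3: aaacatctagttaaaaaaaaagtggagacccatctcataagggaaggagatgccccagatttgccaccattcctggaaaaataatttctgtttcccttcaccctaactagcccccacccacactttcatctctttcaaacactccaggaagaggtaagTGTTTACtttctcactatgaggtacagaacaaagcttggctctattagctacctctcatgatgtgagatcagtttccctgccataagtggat
Slc34a2: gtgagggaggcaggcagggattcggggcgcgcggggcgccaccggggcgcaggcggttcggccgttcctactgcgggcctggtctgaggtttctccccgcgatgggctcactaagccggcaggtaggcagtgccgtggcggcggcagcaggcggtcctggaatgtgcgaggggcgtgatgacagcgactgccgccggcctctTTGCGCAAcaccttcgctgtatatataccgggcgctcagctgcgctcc
They lie at chr6:72304360-72304609 (plus), chr14:41131538-41131787 (plus), chr16:19706366-19706615 (minus) and chr5:53049103-53049352 (plus). The RefSeq start of Slc34a2 is 11272 bases inside the GENCODE gene, and those of Sftpb, Sftpa1 and Lamp3 are 0, 6 and 10 bases from its ends.

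The Sftpb promoter held CTCAAG at 2 places, 100 to 95 and 15 to 10 bases before the start, and the Sftpa1 promoter held it at 166 to 161 bases and TATAAA at 30 to 25 bases before it. The forkhead motif of Lamp3 lay at 92 to 86 bases and the C/EBP motif of Slc34a2 at 48 to 41 bases before the start. Of 32851 promoters of this length, 13.3% held CTCAAG, 12.4% TATAAA, 3.17% TGTTTAC and 0.164% TTGCGCAA, and the longer C/EBP form stood in 0.00609% of them and in none of the 6. The Abca3 and Lpcat1 windows held none of the motifs, which says only that these letters are not in the window.

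The first comparison asked how the challenge changed these genes. All 9 were lower in AE-PF than in saline lung, and for each of them the AE-PF and saline libraries did not overlap. The change was largest for Sftpc, Lamp3, Sftpa1 and Slc34a2, whose AE-PF means were 22.3%, 26.5%, 25.0% and 28.0% of the saline means. Sftpb, Lpcat1 and Abca3 followed at 37.3%, 40.5% and 45.0%, and Sftpd and Napsa kept 52.7% and 63.1%. Falls were widespread in these lungs: 30.2% of the 15164 genes tested were called lower (4575 genes, against 4003 higher), and 29.0% were lower without overlap between the groups, but 5.03% were called at least 2-fold lower, as 7 of the 9 were. A call is an adjusted p under 0.05 in limma, fitted to log2(FPKM + 1) over all genes tested. With libraries scaled to equal FPKM totals, 3163 genes were called lower and 5376 higher, and the 9 genes were still all called lower. The median log2 change was -1.46 for the 9 genes and -0.03 for all genes tested. In whole-tissue RNA, fewer type 2 cells, less RNA per type 2 cell and more RNA from other cells cannot be told apart.

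**Figure D1:**
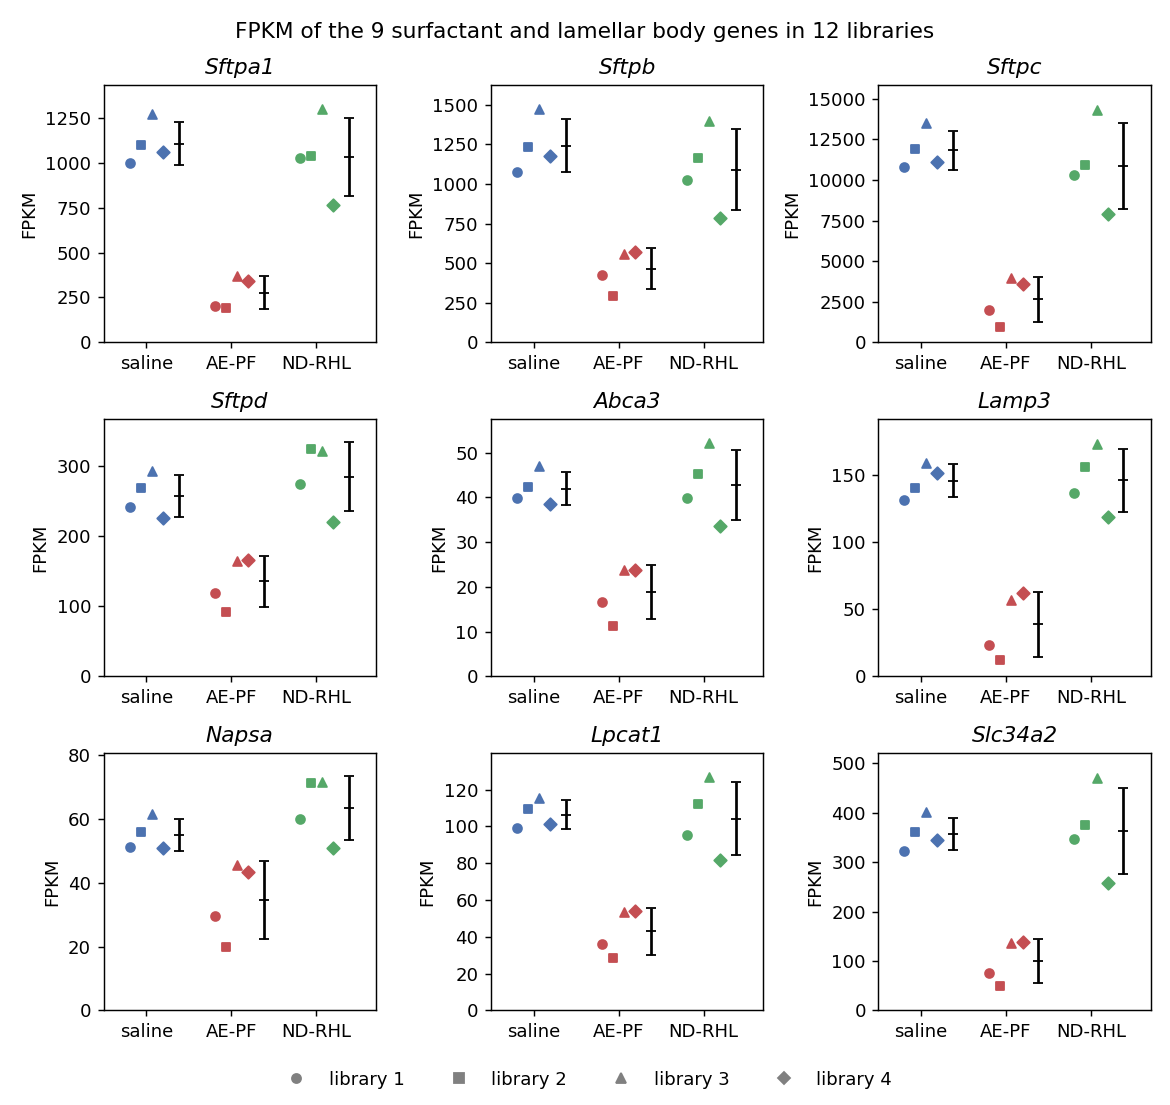
FPKM (vertical axes, each from 0) of the 9 genes in the 4 saline, 4 AE-PF and 4 ND-RHL libraries, with a marker shape per library number and the mean ± SD beside each group. All AE-PF points lie below all saline and all ND-RHL points, and AE-PF libraries 1 and 2 lie below libraries 3 and 4 in each panel.

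Among the hydrophobic surfactant proteins, Sftpc (SP-C), the classic marker of type 2 cells, was the most abundant of the 9 transcripts in every library. Its level was 10792, 11879, 13515 and 11102 FPKM in saline libraries 1 to 4 and 2011, 969, 3945 and 3616 FPKM in AE-PF libraries 1 to 4. The highest AE-PF library thus held less Sftpc than the lowest saline library, with the largest gap at AE-PF library 2. The mean fell from 11822 ± 1218 to 2635 ± 1396 FPKM (SD, n = 4 here and below), a log2 change of -2.36 (SE 0.41, adjusted p 0.000514 by limma), or 5.13-fold with a 95% interval of 2.77 to 9.50. With no filter on low values the same log2 change had an adjusted p of 0.261 by limma. Sftpc took 1.12 to 1.40% of all fragments in saline lung and at most 0.408% in AE-PF lung.

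Sftpb (SP-B), whose loss is lethal at birth, stood at 1076, 1236, 1474 and 1179 FPKM in the saline libraries and at 427, 295, 559 and 573 FPKM in the AE-PF libraries. Libraries 3 and 4 of AE-PF were the highest of their group and still far below the lowest saline library. Sftpb fell by 1.46 on the log2 scale (SE 0.23, adjusted p 0.000277 by limma), a 2.75-fold change and smaller than that of Sftpc. Napsa, napsin A, an aspartic protease of lamellar bodies that helps to cut the SP-B precursor, changed least of the 9. Its FPKM was 51.1, 55.9, 61.5 and 51.0 in saline and 29.7, 19.8, 45.5 and 43.5 in AE-PF. The groups were separate, but AE-PF libraries 3 and 4 came close to saline. Napsa fell by 0.72 (SE 0.22, adjusted p 0.0168 by limma), and without AE-PF libraries 1 and 2 by 0.29 with an adjusted p of 0.103.

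The collectins fell to different extents. Sftpa1 (SP-A) was at 999, 1097, 1272 and 1060.0 FPKM in saline and 203, 190.1, 370.0 and 343 FPKM in AE-PF, far apart in every library. Its log2 change of -2.05 (SE 0.23, adjusted p 2.8e-05 by limma) had the smallest p of the 9. Sftpd (SP-D), its neighbour on chromosome 14, was at 241, 268, 292 and 225 FPKM in saline and 119, 92.2, 164 and 166 FPKM in AE-PF. Here all AE-PF libraries were below saline, with a narrower gap. The log2 change of Sftpd was -0.95 (SE 0.19, adjusted p 0.00142 by limma), a 1.93-fold fall against 4.15-fold for Sftpa1.

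Lamellar body genes spanned the same range. Lamp3, a membrane glycoprotein of the lamellar body, had 132, 141, 159 and 152 FPKM in saline and 23.6, 12.5, 56.6 and 62.2 FPKM in AE-PF. AE-PF library 2 was far below any saline library, and AE-PF libraries 3 and 4 were well above libraries 1 and 2, the widest spread of the 9 genes (coefficient of variation 63.1%). The log2 change was -2.14 (SE 0.40, adjusted p 0.000887 by limma), and -1.45 when limma weighted the libraries by their quality. Abca3, the transporter that moves phospholipid into lamellar bodies, had 40.0, 42.4, 47.1 and 38.5 FPKM in saline and 16.6, 11.4, 23.9 and 23.8 FPKM in AE-PF. No AE-PF library reached the saline range, and the log2 change was -1.16 (SE 0.21, adjusted p 0.000664 by limma).

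Lpcat1, the acyltransferase that remodels lysophosphatidylcholine into the saturated phosphatidylcholine of surfactant, was at 98.8, 109.6, 116 and 101 FPKM in saline and 36.4, 28.4, 53.3 and 54.2 FPKM in AE-PF. The saline libraries were close together (coefficient of variation 7.24%, the lowest of the 9) and all AE-PF libraries were well below them. Lpcat1 fell by 1.33 on the log2 scale (SE 0.20, adjusted p 0.000184 by limma). Slc34a2, the apical sodium-phosphate cotransporter that recovers phosphate from the alveolar fluid, stood at 323, 361, 401 and 345 FPKM in saline and at 76.0, 49.8, 136 and 138 FPKM in AE-PF. It was low in all AE-PF libraries and lowest in library 2, and fell by 1.94 (SE 0.29, adjusted p 0.000223 by limma).

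AE-PF library 2 was the lowest and AE-PF library 1 the second lowest of all 12 libraries for each of the 9 genes. Without both, a choice made after the data had been seen, 8 of the 9 were still called lower, and the log2 change became -1.64 for Sftpc and -1.28 for Lamp3. With AE-PF library 2 and the fourth ND-RHL library left out, in which squamous and skeletal muscle transcripts were high, all 9 calls remained, with -1.94 for Sftpc and -1.71 for Lamp3.

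The second comparison asked what the liposomes changed in the challenged lung. Each of the 9 genes was higher after treatment than in AE-PF lung, and again no gene had overlapping groups. Among all genes tested, 24.3% were called higher (3686 genes, against 2646 lower, or 2359 against 3874 with equal FPKM totals), 21.2% were higher without overlap and 2.66% were called at least 2-fold higher, as 8 of the 9 were. The median log2 change was 1.28 for the 9 genes and 0.06 for all genes tested. Both comparisons use the same AE-PF libraries, so a low AE-PF value enters both.

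Sftpc had 10334, 10898, 14292 and 7899 FPKM in ND-RHL libraries 1 to 4, and even library 4, the lowest, was well above the highest AE-PF value. The log2 change against AE-PF was 2.21 (SE 0.41, adjusted p 0.00162 by limma), or 4.62-fold with a 95% interval of 2.50 to 8.56, and 1.49 without AE-PF libraries 1 and 2. With no filter on low values its adjusted p was 0.334 by limma. Sftpb was at 1022, 1161, 1397 and 783 FPKM, with all libraries above the AE-PF range. It rose 2.38-fold (log2 1.25, SE 0.23, adjusted p 0.00159 by limma). The FPKM of Napsa, at 60.1, 71.2, 71.8 and 51.0, was above AE-PF in every library, with the smallest rise of the 9 (log2 0.91, SE 0.22, adjusted p 0.00736 by limma).

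Sftpa1 had 1024, 1036, 1297 and 767 FPKM in ND-RHL lung, each far above any AE-PF library, and a log2 change of 1.93 (SE 0.23, adjusted p 0.000128 by limma). Sftpd had 274, 324, 321 and 219 FPKM, which put library 4 nearest to AE-PF, and rose by 1.09 (SE 0.19, adjusted p 0.00126 by limma). It was the gene of the 9 whose highest ND-RHL library was library 2 and not library 3.

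Lamp3 had 137, 156, 173 and 119 FPKM after treatment. These values were all above AE-PF, and the log2 change was 2.14 (SE 0.40, adjusted p 0.0018 by limma), or 1.27 without AE-PF libraries 1 and 2 and 1.53 with libraries weighted by quality. The 4 ND-RHL values of Abca3 were 39.9, 45.3, 52.2 and 33.7 FPKM and those of Lpcat1 95.5, 112, 127 and 81.6 FPKM. For both genes library 4 was lowest and still above all AE-PF libraries. They rose by 1.18 (SE 0.21, adjusted p 0.00131) and 1.28 (SE 0.20, adjusted p 0.000558 by limma). Slc34a2 had 348, 376, 470.3 and 258 FPKM, and its log2 change of 1.94 (SE 0.29, adjusted p 0.000542 by limma) was as large as its fall in AE-PF. ND-RHL library 4 was the lowest of its group for all 9 genes, and library 3 the highest for 8 of them.

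**Figure D2:**
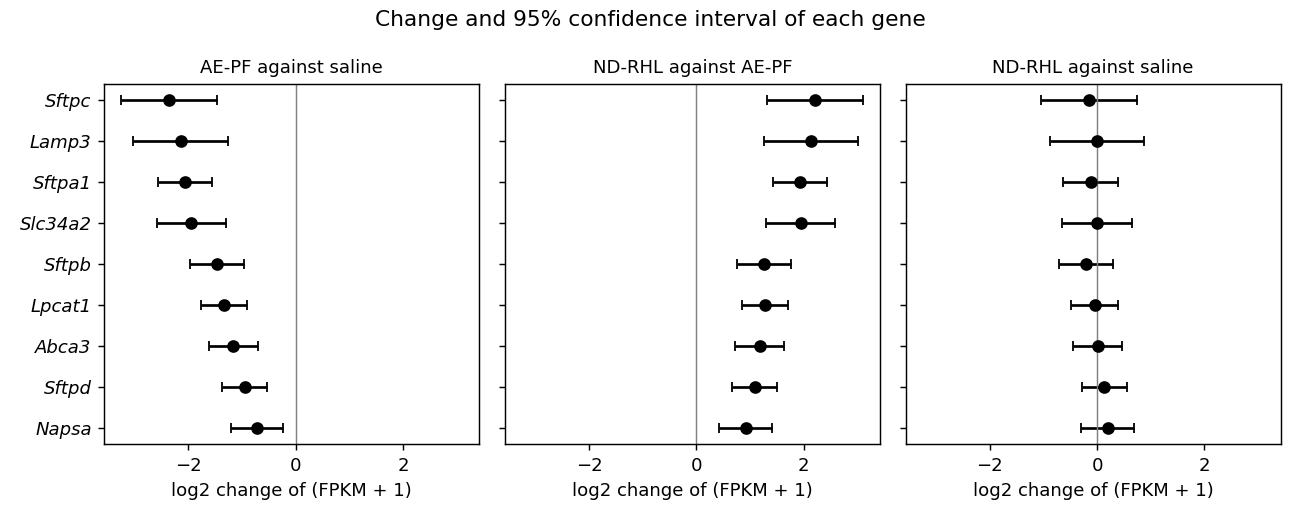
Log2 change of FPKM + 1 (horizontal axes) of each gene in the 3 comparisons, with 95% confidence intervals from limma; points left of 0 are lower in the group named first. All 9 intervals lie below 0 for AE-PF against saline, above 0 for ND-RHL against AE-PF and across 0 for ND-RHL against saline.

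The third comparison asked how near the treated lung was to the saline lung. None of the 9 genes passed the test between ND-RHL and saline, none had an unadjusted p under 0.05 by limma, and none was called by limma-voom on the recovered fragments, whereas 21.9% of all genes tested were called (8.65% lower and 13.3% higher). The ND-RHL means were 87.9% of saline for Sftpb, 91.8% for Sftpc, 93.1% for Sftpa1 and 97.9% for Lpcat1. Those of Lamp3, Slc34a2, Abca3, Sftpd and Napsa were 100.3%, 101.6%, 101.8%, 110.8% and 115.7%. Ranges overlapped for every gene. The data do not show equality. For Sftpc the 95% interval of the log2 change ran from -1.04 to 0.74, that of Lamp3 from -0.88 to 0.87, and the narrowest, that of Sftpd, from -0.28 to 0.56. The fit used 1 estimate of each gene's spread for all 3 groups, so the more variable AE-PF libraries entered these intervals. For Lamp3 the coefficient of variation was 8.36% in saline, 16.0% in ND-RHL and 63.1% in AE-PF lung.

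Each gene's spread between libraries also differed by group. The coefficient of variation over the 9 genes was 7.24 to 13.6% in saline, 26.7 to 63.1% in AE-PF and 15.6 to 24.3% in ND-RHL lung. The deviations from the group means ran together: over the 12 libraries, the 36 pairs of genes had Pearson r of 0.87 to 0.99 (median 0.96), with the lowest value for Sftpb and Lamp3. These points share their libraries, so the correlations are descriptions only. Saline library 3 was the highest of its group for all 9 genes.

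Summed, the 9 genes made up 4.59 to 5.56% of the FPKM total of a saline library, 0.599 to 1.96% in AE-PF and 3.35 to 6.08% in ND-RHL lung. In saline lung the order of levels was Sftpc, Sftpb, Sftpa1, Slc34a2, Sftpd, Lamp3, Lpcat1, Napsa and Abca3, and of the neighbours in that order only Sftpb and Sftpa1 had overlapping ranges. The order by mean in ND-RHL lung was the same, with overlap also between Slc34a2 and Sftpd, Lamp3 and Lpcat1, and Napsa and Abca3. In AE-PF lung Sftpd (135 ± 36.2 FPKM) ranked above Slc34a2 (99.9 ± 44.0) and Lpcat1 (43.0 ± 12.7) above Lamp3 (38.7 ± 24.4), but from Sftpd downward all neighbours overlapped. Sftpc took 77.9 to 78.5% of the summed FPKM of the 9 genes in saline, 58.1 to 73.7% in AE-PF and 76.9 to 78.5% in ND-RHL lung.

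Whether the genes changed unequally was tested with the ratio of each to Slc34a2 within a library, which does not depend on how libraries are scaled. Of 24 such comparisons (8 genes in 3 contrasts, exact permutation test, 2-sided, 4 against 4 libraries), 14 passed after Benjamini-Hochberg adjustment, each at the smallest p the design allows (exact p 0.0286, adjusted 0.049). In AE-PF against saline, 5 genes were higher relative to Slc34a2. The geometric mean ratio went from 0.154 to 0.358 for Napsa, from 0.717 to 1.43 for Sftpd, from 0.118 to 0.197 for Abca3, from 0.298 to 0.453 for Lpcat1 and from 3.46 to 4.88 for Sftpb. These 5 therefore lost less than Slc34a2 did. The ratio of Sftpc was lower, 33.1 in saline and 25.0 in AE-PF, and for Sftpa1 and Lamp3 the ratios overlapped (exact p 0.543 and 0.4).

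In ND-RHL against AE-PF lung the ratios of the same 5 genes, Napsa, Sftpd, Abca3, Lpcat1 and Sftpb, were lower and did not overlap (exact p 0.0286 each, adjusted 0.049), while that of Sftpc was not past the test (exact p 0.0571, adjusted 0.0914). Between ND-RHL and saline 3 ratios passed, all of surfactant proteins and all lower in ND-RHL: Sftpa1 with 2.85 against 3.10, Sftpb with 3.01 against 3.46 and Sftpc with 29.9 against 33.1. In the single libraries Sftpb to Slc34a2 was 2.94, 3.08, 2.97 and 3.03 in ND-RHL and 3.34, 3.43, 3.68 and 3.42 in saline, so that the 2 groups were narrow and apart. With any 1 of the 12 libraries left out none of the 14 passed after adjustment, since 3 against 4 libraries cannot go below an exact p of 0.0571 and the adjustment ran over all 24 ratios.

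**Figure D3:**
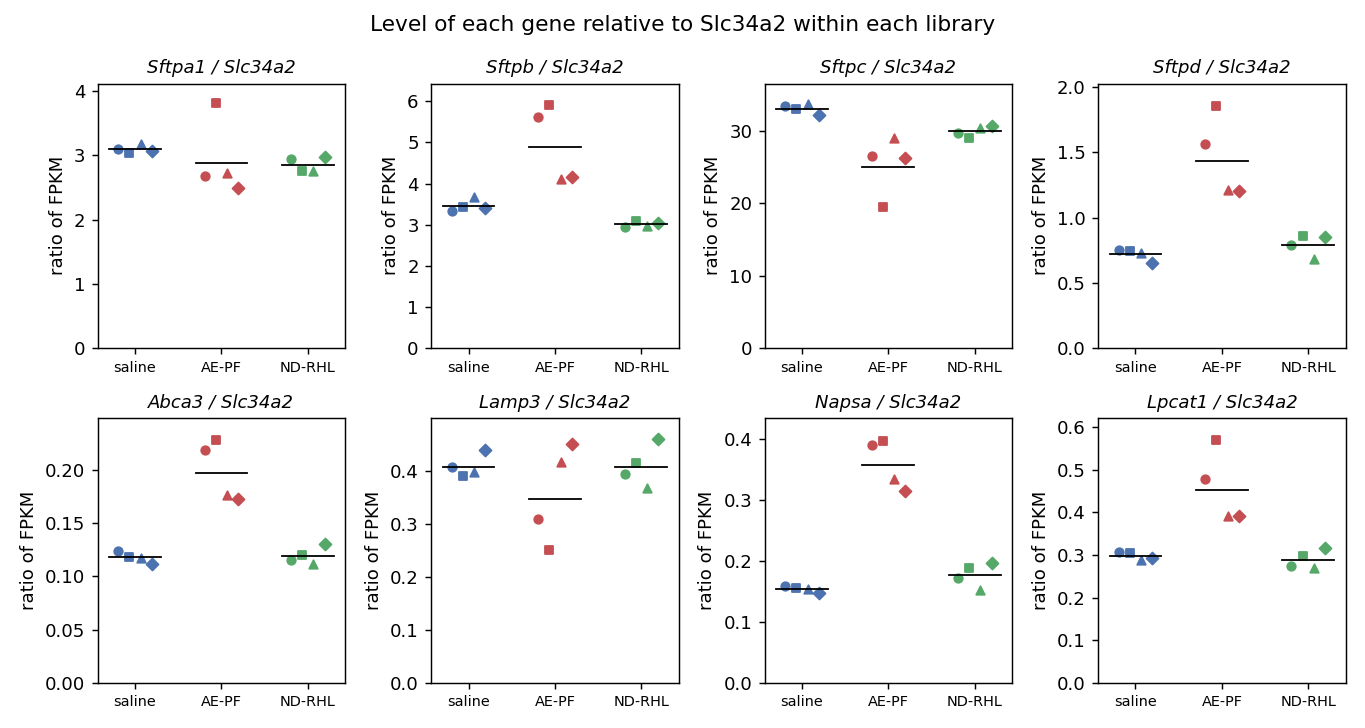
Ratio of the FPKM of each of 8 genes to that of Slc34a2 in the same library (vertical axes from 0), with the geometric mean of each group as a line and a marker shape per library number. For Napsa, Sftpd, Abca3, Lpcat1 and Sftpb all 4 AE-PF points lie above all saline and ND-RHL points, and for Sftpb the ND-RHL points lie below saline.

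Genes outside the 9 whose levels ran most like them were found over 8711 genes with a mean of at least 5 FPKM, as Pearson r over 12 libraries with the mean standardised profile of the 9. The highest was Muc1, a cell surface mucin of type 2 and airway cells (r 0.997, and 0.983 for deviations from the group means). It stood at 78.9 ± 5.83 FPKM in saline, 27.2 ± 10.9 in AE-PF and 80.8 ± 14.9 in ND-RHL lung. Sfta3-ps followed (r 0.996), whose gene lies 2530 bases from Nkx2-1. Then came Mlc1, Utrn, Atf7ip, Phactr1 and Myo5b, at r of 0.995 down to 0.993. At the other end stood Lpar1, a lysophosphatidic acid receptor (r -0.993), Slc7a6 (-0.991), Fbln2 (-0.986) and Gars (-0.984). Lpar1 was at 6.70 ± 0.650 FPKM in saline, 15.2 ± 5.59 in AE-PF and 6.61 ± 1.21 in ND-RHL lung.

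Of 13 enzymes and regulators of surfactant lipid, 9 were called lower and 0 higher in AE-PF lung. Of all genes tested, 30.2% were called lower there and 26.4% higher. After treatment 8 were called higher and 0 lower (5 higher without AE-PF libraries 1 and 2), against 24.3% and 17.4% of all genes. The median log2 changes were -0.67 and 0.45. Fasn, fatty acid synthase, went from 68.0 ± 16.0 FPKM in saline to a range of 13.2 to 27.4 in AE-PF and 68.4 ± 19.2 in ND-RHL lung (adjusted p 0.000252 and 0.000603 by limma). Its highest values were in saline library 1 (92.0) and ND-RHL library 1 (95.6). Those libraries also had the highest summed FPKM of adipocyte markers in their groups, 647 and 859. In AE-PF lung, library 2 had the highest adipocyte sum (26.9) and the lowest Fasn. The part of fat tissue in the changes of the lipid genes was not tested. Prdx6, a peroxiredoxin with the phospholipase activity that degrades surfactant lipid, went from 208 ± 7.28 to 113 ± 13.2 and 155 ± 19.8 FPKM, and Chka, choline kinase, from 9.93 ± 0.586 to 5.58 ± 0.646 and 7.33 ± 1.09. Both were still lower in ND-RHL than in saline lung (adjusted p 0.0151 and 0.0156 by limma). Elovl1, an elongase of long fatty acids, was the single lipid gene higher in ND-RHL than in saline lung, 161 ± 17.5 against 87.0 ± 7.12 FPKM (adjusted p 0.0103 by limma).

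The genes of surfactant protein processing, lamellar body trafficking and secretion did not move one way. Of 14, 6 were called higher and 3 lower in AE-PF lung, and 3 higher and 3 lower after treatment, with medians of 0.09 and -0.01. Over all genes tested, 26.4% were called higher and 30.2% lower in AE-PF, and 24.3% higher and 17.4% lower after treatment. The 3 lower in AE-PF and both counts after treatment were thus near the shares of all genes. Ctsh, cathepsin H, a protease that takes part in cutting the SP-B and SP-C precursors and is also made by other cells, rose from 57.0 ± 6.23 FPKM in saline to a range of 118 to 161 in AE-PF (adjusted p 1.75e-05 by limma) and was 77.2 ± 15.0 in ND-RHL lung. Adgrf5, a receptor that limits the surfactant pool, fell from a range of 206 to 234 FPKM to 98.7 ± 17.5 (adjusted p 8.42e-05 by limma) and was 188.5 ± 39.4 after treatment. Small rises of Nedd4, a ubiquitin ligase that acts on the SP-C precursor, and Ap3b1, an adaptor subunit for lysosome-related organelles, were 0.29 and 0.30 on the log2 scale.

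Of 11 transcription factors that act on surfactant genes, 9 were called lower and 1 higher in AE-PF lung, and 8 higher and 1 lower after treatment. The shares over all genes tested were 30.2% lower and 26.4% higher in AE-PF, and 24.3% higher and 17.4% lower after treatment. Nkx2-1, the factor of the CTCAAG motif, went from 66.6 ± 6.41 FPKM in saline to 25.1 ± 8.67 in AE-PF and 54.7 ± 11.7 in ND-RHL lung (adjusted p 0.000337 and 0.00285 by limma). Foxa1, a forkhead factor, was at 17.8 ± 1.57, 4.12 ± 1.14 and 10.6 ± 2.78 FPKM, and was the single factor of the list still lower in ND-RHL than in saline lung (log2 -0.72, adjusted p 0.0186 by limma). Grhl2, an epithelial factor, was at 3.25 ± 0.240, 1.40 ± 0.318 and 2.94 ± 0.445 FPKM, and Nr3c1, the glucocorticoid receptor, at 33.7 ± 1.52, 23.3 ± 2.50 and 30.9 ± 2.46 FPKM. The factor called higher in AE-PF was Stat3, with 32.7 ± 2.03, 40.3 ± 1.79 and 29.5 ± 1.35 FPKM, a gene likewise picked for its values.

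Chaperone and stress genes of the endoplasmic reticulum, where the surfactant proteins fold, followed another order. Of 10, 4 were called lower and 1 higher in AE-PF against saline, 5 lower and 1 higher in ND-RHL against AE-PF, and 7 lower in ND-RHL against saline. Over all genes tested, 30.2%, 17.4% and 8.65% were called lower in these contrasts. The 4 lower in AE-PF were near that share, and the 5 and 7 lower in the other contrasts were above it. Hspa5, the chaperone BiP, was at 226 ± 19.9, 181 ± 8.55 and 131 ± 14.4 FPKM in saline, AE-PF and ND-RHL lung. In contrast to the 9 genes it was thus lowest in ND-RHL lung (adjusted p 0.00175 against AE-PF by limma). Ddit3 and Herpud1 were lower in AE-PF than in saline by 0.72 each on the log2 scale.

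Markers of type 2 cells outside the 9 genes moved with them. Of 14, 13 were called lower in AE-PF lung and 13 higher after treatment, against 30.2% and 24.3% of all genes tested. The medians were -1.73 and 1.78, and the summed FPKM of the list was 1501 to 2010 in saline, 287 to 825 in AE-PF and 1296 to 1939 in ND-RHL lung. The exception in both was Cldn18, at 123 ± 9.50, 109.1 ± 43.4 and 147 ± 32.8 FPKM, a gene named because of these values. Acoxl, an acyl-CoA oxidase, fell from 19.8 ± 1.84 to a range of 0.679 to 3.27 FPKM, and Il33, an alarmin, from 46.8 ± 5.45 to 14.2 ± 5.69. Bex2 was the single marker still lower in ND-RHL than in saline lung (9.81 ± 6.23 against 25.0 ± 5.07 FPKM, adjusted p 0.0128 by limma).

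**Figure D4:**
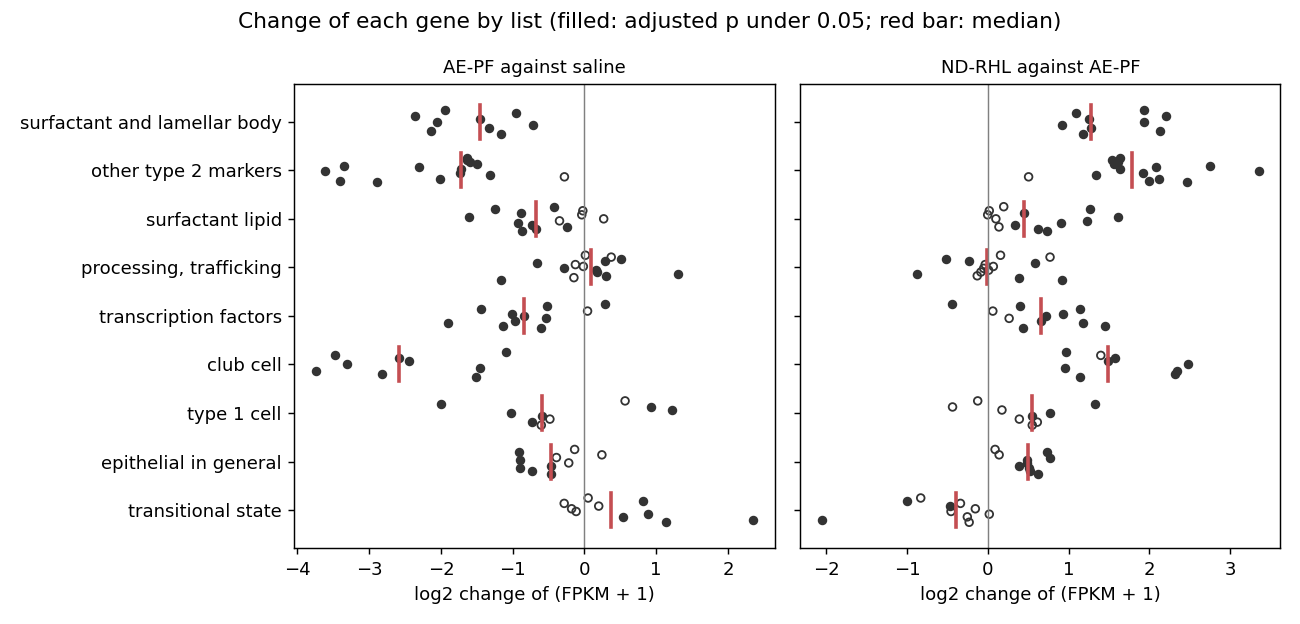
Log2 change of FPKM + 1 (horizontal axes) of each tested gene, by list, in AE-PF against saline (left) and in ND-RHL against AE-PF (right); filled points are past an adjusted p of 0.05 and a red bar is the median of a list. The 9 genes and the other type 2 markers lie to the left of 0 on the left and to the right of 0 on the right, and processing and trafficking genes lie on both sides of 0.

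Other epithelial lists moved with the 9 genes to different extents. All 9 club cell markers were called lower in AE-PF (median -2.59) and 8 higher in ND-RHL against AE-PF (median 1.49), but 4 were still lower in ND-RHL than in saline, among them the secretoglobin Scgb1a1, at 30033 ± 5559, 4970.0 ± 581 and 15465 ± 5137 FPKM. The summed FPKM of the club list was 30204 to 41803 in saline, 5115 to 6557 in AE-PF and 10902 to 24584 in ND-RHL lung. Type 1 cell markers were mixed, with 2 higher and 4 lower of 9 in AE-PF and 3 higher and 0 lower of 9 after treatment. The shares over all genes tested were 26.4% higher and 30.2% lower in AE-PF, and 24.3% higher and 17.4% lower after treatment. The counts of these 9 markers were not far from those shares. General epithelial genes fell in 6 of 10 cases in AE-PF (median -0.47), and 8 of 10 rose in ND-RHL against AE-PF (4 of 10 without AE-PF libraries 1 and 2). Of 10 genes of the transitional alveolar state, 5 were called higher and 0 lower in AE-PF, and 0 higher and 3 lower in ND-RHL against AE-PF. Cldn4, a claudin of that state and 1 of the 5, was at 5.91 ± 3.68, 30.8 ± 7.70 and 7.08 ± 3.07 FPKM. The keratins of the list did not pass in AE-PF against saline. Their log2 changes were -0.28 for Krt8, -0.12 for Krt18, -0.18 for Krt19 and 0.20 for Krt7.

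Lists of other cells and of glucocorticoid-induced genes were counted in the same way. Of all genes tested, 26.4% were called higher and 30.2% lower in AE-PF, and 17.4% lower in ND-RHL against AE-PF. Mature dendritic cells express Lamp3 too. Of 8 of their markers 4 were called higher and 1 lower in AE-PF (7 higher without AE-PF libraries 1 and 2), 3 were lower in ND-RHL against AE-PF, and their summed FPKM was 40.2 to 42.5 in saline, 64.3 to 131 in AE-PF and 54.1 to 109.7 in ND-RHL lung. Of 10 genes of alveolar macrophages and surfactant clearance, 5 rose and 1 fell in AE-PF, and 5 fell in ND-RHL against AE-PF. Among those that rose in AE-PF, Abca1, a lipid exporter, was at 12.0 ± 0.982, 26.6 ± 2.66 and 13.8 ± 0.569 FPKM. The 1 that fell was Siglecf, an alveolar macrophage marker named for this fall. It was at 5.09 ± 0.735, 2.26 ± 0.962 and 3.83 ± 1.22 FPKM (log2 -0.95 in AE-PF against saline, adjusted p 0.00481 by limma). The other 4 genes of the list did not pass in that contrast. Of 6 glucocorticoid-induced genes 2 were called higher in AE-PF, near the 26.4% of all genes tested, and 2 lower after treatment, where 17.4% of all genes were. Fkbp5, one of them, was at 2.19 to 2.71 FPKM in saline, 30.2, 42.8, 12.0 and 11.3 FPKM in AE-PF libraries 1 to 4 and 3.24 ± 0.849 FPKM in ND-RHL lung. AE-PF libraries 1 and 2, the lowest for all 9 genes, were thus the highest for Fkbp5. They were also the highest of their group in the summed FPKM of the macrophage and clearance list (1219.5 and 978, against 532 and 463.5 in libraries 3 and 4) and of the glucocorticoid list (228 and 262, against 173 and 167). Most of the macrophage and clearance sums was Chil3 alone, at 945, 727, 305 and 240 FPKM in AE-PF libraries 1 to 4. The part of these differences in the changes of the 9 genes was not tested.

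Markers of cardiac muscle and of adipocytes changed in the same direction as the 9 genes. Of all genes tested, 30.2% were called lower in AE-PF and 24.3% higher in ND-RHL against AE-PF. All 6 cardiac muscle markers were called lower in AE-PF and 5 higher in ND-RHL against AE-PF, and their summed FPKM was 327 to 576 in saline, 30.0 to 52.1 in AE-PF and 137 to 711 in ND-RHL lung. Of 6 adipocyte markers 5 were tested and all 5 were called lower in AE-PF, with 4 higher in ND-RHL against AE-PF (1 without AE-PF libraries 1 and 2). Their summed FPKM was 123 to 647, 2.29 to 26.9 and 20.4 to 859. No cardiac or adipocyte marker was at 0 in a saline library, and at most 1 of each list was at 0 in any AE-PF or ND-RHL library. Of the 7 squamous and 6 skeletal muscle markers, 2 and 4 were tested and 0 were called in any comparison. The part of these tissues in the changes of the 9 genes was not tested.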

How the data were processed

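The deposited table gave FPKM for 35599 genes in 12 lung libraries (3 groups of 4, groups and numbers from the titles); the authors made it, per the submitters' processing notes, with tools among which DESeq2 1.30.1, STAR 2.7.9a, FastQC, Subread 2.0.1 (featureCounts) and Trim Galore 0.6.6 are named without their roles, on GRCm38 (mm10). The counting of shared reads and the strand setting are not given in the sources used here. Whole fragments were recovered from the FPKM steps for 99.99% of genes (within 1e-05 fragments). A gene was tested if 4 or more libraries had 1 FPKM or more (15164 genes). The test was 2-sided, by limma 3.58.1 (R 4.3.3) with a mean-variance trend, on log2(FPKM + 1) of all 12 libraries (9 residual degrees of freedom), with Benjamini-Hochberg adjustment over all genes tested. Fold changes are on that scale, which understates those of low genes. limma-voom on the recovered fragments was an alternative, and the fit was checked on simulated data. Ratios to Slc34a2 were compared by exact permutation over libraries. The 9 genes and the 16 other gene lists were chosen with earlier results of these data known, so no count over them is independent evidence. Named outside the 9 were up to 4 genes per list with the smallest p in AE-PF against saline, called genes of lists with at most 5 calls, and the 8 most and 4 least alike, of which 1 is not reported here. Coordinates are GENCODE M21 on GRCm38, matched by gene identifier, since the positions in the table are not those of that build.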

Additional observations from a re-analysis of the deposited data

How the results depend on the processing

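Over 27 alternative settings, the 9 genes kept their direction in AE-PF against saline and in ND-RHL against AE-PF, and 3 calls were lost. With no filter on low values the adjusted p of Sftpc by limma was 0.261 and 0.334, the fold changes being the same, and without AE-PF libraries 1 and 2, an alternative added after the data had been seen, that of Napsa was 0.103; the cause was not tested. In both contrasts 8 or 9 genes were called in every setting, and none between ND-RHL and saline. The counts of ratios past the test were 6, 5 and 3 in the 3 contrasts. They were 0 in each when any 1 library, or AE-PF library 2 and ND-RHL library 4, were left out. With 3 libraries in either group the test as run, which doubles the smaller tail, cannot go below an exact p of 0.0571. The adjustment ran over all 24 ratios. With Abca3 as the reference, another quantity by construction, signs turned for Sftpb (-0.25) and Lpcat1 (-0.14) in AE-PF against saline and for Sftpa1 (0.71), Sftpb (0.0295) and Lpcat1 (0.0822) in ND-RHL against AE-PF. Quantile normalisation, which gives genes of equal rank one value, put Scgb1a1 and Sftpc at 0 between ND-RHL and saline, so for Sftpc that setting carries no information on this contrast. Scaling to equal FPKM totals gave a median change over all genes of 0.08 in place of -0.03 in AE-PF against saline. Deviations of same-numbered libraries had r of -0.387 to 0.397 (median 0.065), and those of others -0.42 to 0.467 (median -0.00477). These ranges overlap and cannot decide whether replicate numbers pair the libraries. With the replicate block, 9, 9 and 0 genes were called, as without it. Of all genes tested, 4575 were called lower in AE-PF and 2896 with a minimum of 5 FPKM, and 3686 were called higher in ND-RHL against AE-PF, 2359 with equal FPKM totals and 1971 without AE-PF libraries 1 and 2. Between ND-RHL and saline 2011 were called higher and 1312 lower, with 1229 and 779 without saline library 2 and 1260 and 823 without saline library 1. Of 2754 counts over gene lists 198 moved by over 1.5 times.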
